A study of Mus musculus with 8 samples.

Results

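AP-1 is a group of transcription factors that bind DNA as pairs of basic leucine zipper (bZIP) proteins, and the 10 genes described here encode its Jun, Fos and smaller ATF-like subunits. The members are Jun, Junb, Jund, Fos, Fosb, Fosl1, Fosl2, Atf3, Batf3 and Jdp2. They were taken as the rows of the deposited value table whose single annotated gene symbol is one of these names. All 10 were found, each on 1 probe set that carries no other symbol, among 19938 genes. Expression was measured in cultured mouse primary myoblasts, the proliferating cells that grow from muscle satellite cells, on Affymetrix MoGene 1.0 ST arrays. There were 4 arrays labelled Runx1f/f and 4 labelled WT, each set numbered 1 to 4. All cells came from gastrocnemius muscle of C57bl/6 mice aged 2 to 3 weeks and were grown on Matrigel in a proliferation medium that was changed daily. The Runx1f/f group is also called KO in the labels, and the sources used here do not give the Cre line that would delete the floxed Runx1 gene, nor the time between the last change of medium and RNA isolation.

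Jun proteins can pair with one another or with Fos proteins, whereas Fos proteins need a Jun partner. The pairs bind the sequence TGANTCA, and ATF-containing pairs prefer the cyclic AMP response element, which is 1 base longer. Growth factors and stress act through the mitogen-activated kinases ERK and JNK to induce several of these genes within minutes, which makes them immediate early genes, and JNK phosphorylates c-Jun, so that RNA levels do not report AP-1 activity. In muscle cells, high AP-1 activity is known to go with proliferation and to oppose MyoD, and c-Jun can bind MyoD directly. The series title names c-Jun and MyoD as partners of Runx1.

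The 250 bases before the transcription start of Jun, Junb and Fos are shown because the arrays with replicate numbers 2 and 3 and those with numbers 1 and 4 did not overlap in these 3 members. Sequences are from RefSeq (GRCm38.p6), written 5′ to 3′ on the strand of the gene, and capitals mark the matches to the motifs named after them. The Jun window is chr4:95052223-95052472 on the minus strand, the Junb window chr8:84978749-84978998 on the minus strand, and the Fos window chr12:85473640-85473889 on the plus strand.
Jun: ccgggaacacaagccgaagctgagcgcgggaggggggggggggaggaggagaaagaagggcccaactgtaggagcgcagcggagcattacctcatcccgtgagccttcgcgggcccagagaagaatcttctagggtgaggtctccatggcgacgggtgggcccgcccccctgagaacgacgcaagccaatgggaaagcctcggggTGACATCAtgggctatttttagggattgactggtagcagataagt
Junb: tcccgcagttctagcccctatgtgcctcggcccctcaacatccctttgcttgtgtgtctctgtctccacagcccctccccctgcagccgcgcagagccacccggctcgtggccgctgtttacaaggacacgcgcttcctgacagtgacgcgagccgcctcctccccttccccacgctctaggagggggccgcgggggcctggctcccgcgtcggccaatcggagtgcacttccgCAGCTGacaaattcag
Fos: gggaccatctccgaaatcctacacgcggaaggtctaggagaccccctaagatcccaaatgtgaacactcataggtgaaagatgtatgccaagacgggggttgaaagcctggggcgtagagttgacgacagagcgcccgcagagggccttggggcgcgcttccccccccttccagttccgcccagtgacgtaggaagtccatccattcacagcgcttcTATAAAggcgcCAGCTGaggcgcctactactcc
The motifs searched, on both strands, were TGANTCA, TGACNTCA (which includes the cyclic AMP response element and the AP-1-like site of Jun), TGTGGT (bound by Runx factors), CAGCTG (an E-box that MyoD binds), the CArG box (bound by serum response factor) and TATAAA. Jun held TGACATCA between 45 and 38 bases before its start, a match to TGACNTCA, which 7.5% of 32851 mouse promoter windows of this length contain. Junb and Fos each held CAGCTG, found in 13.0% of windows, at 16 to 11 and 22 to 17 bases before the start, and Fos held TATAAA, found in 12.4%. Of the 10 members, 9 had an entry in the promoter table, with 11 windows. TGANTCA and TGTGGT, present in 6.7% and 14.0% of all windows, matched in 0 of the 11, as did the CArG box, present in 1.5%. Jund held CAGCTG as well, between 173 and 168 bases before its start. These matches describe letters in a short window, and no binding was measured. Sites outside the window were not searched, so a motif without a match here may still lie farther from the start of the same gene.

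A property of the deposited columns limits each comparison of the labelled genotypes. The 4 WT columns, the pair Runx1f/f 1 and 2 and the pair Runx1f/f 3 and 4 had the same mean in all 35399 rows, to within 7.5e-05, so the 8 columns carry 5 independent differences, and Runx1f/f 1 and 2, like Runx1f/f 3 and 4, are mirror images around their mean. The leading component of the 8 arrays held 49.0% of the variance and crossed the labels. The 4 arrays on its positive side were numbers 2 and 3 of both labels. The labels may not be attached to the right columns. Each column was assigned by the accession in its header, and as labelled 0 of the 3 equal-mean sets coincide with a run of the source numbers that the labels give (139 to 142, 160 to 161, and 181 and 189). If the columns instead stood in rising order of source number, 3 of 3 sets would coincide with a run, the 4 columns of numbers 2 and 3 would all be Runx1f/f and the 4 of numbers 1 and 4 all WT, so that each difference below would be one between genotypes. Which order is right was not tested. The names Runx1f/f 1 to 4 and WT 1 to 4 are therefore used below only as the labels of columns, and no statement about a genotype rests on them. Runx1 itself was higher in numbers 2 and 3 by 0.74 on the log2 scale, with no overlap, and equal between the labels. With the columns in source number order, the higher Runx1 level would thus be that of Runx1f/f. The split of numbers 2 and 3 against 1 and 4 was thus chosen with these values known, and it is described below without a test. Levels are log2 intensities after RMA, differences are numbers 2 and 3 minus numbers 1 and 4 unless stated otherwise, and a level of one probe set cannot be set against that of another.

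No AP-1 member was called different between arrays labelled Runx1f/f and WT. By limma, 0 of 10 members and 0 of 19938 genes (0%) had an adjusted p under 0.05, and 0 genes had an unadjusted p under 0.05. Jun was at 9.61 ± 0.11 in Runx1f/f and 9.61 ± 0.20 in WT arrays (SD, n = 4 each), with p = 1 in a two-sided exact permutation test (70 ways to assign the arrays). Fos was at 4.57 ± 0.03 in Runx1f/f and 4.57 ± 0.30 in WT arrays, and Atf3 at 5.29 ± 0.14 in Runx1f/f and 5.29 ± 0.43 in WT arrays. The equal column means fixed these results in advance, so they do not measure whether loss of Runx1 changes AP-1 genes, also if the labels are attached to the right columns. The labels call the arrays biological replicates without saying whether they came from separate animals.

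Between the replicate numbers, no AP-1 member differed by over 1.5-fold, as few genes did. With numbers 2 and 3 set against 1 and 4, 0 of 10 members were over 1.5-fold higher and 0 over 1.5-fold lower, where 2.32% of all genes were higher and 0.838% lower by that much. The differences ran from -0.35 for Atf3 to 0.27 for Fos, with a median of -0.06 against -0.01 over all genes. Without regard to sign the median member difference was 0.17, against 0.06 over all genes. The 4 values of numbers 2 and 3 lay wholly below those of 1 and 4 in 2 members, Jun and Junb, and wholly above them in 1, Fos, while 10.5% of all genes were wholly lower and 9.87% wholly higher (20.4% either way). The other 7 members overlapped. At a smaller limit of 0.32 on the log2 scale, 1 member, Atf3, was lower and 0 were higher, beside 3.33% and 5.04% of all genes. Over the 8 arrays, members ranged by 0.19 to 1.04 with a median range of 0.41, against 0.25 over all genes. The median difference without regard to sign and the median range were not matched for level. Of the 10 members, 7 lay above the median gene level.

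**Figure D1:**
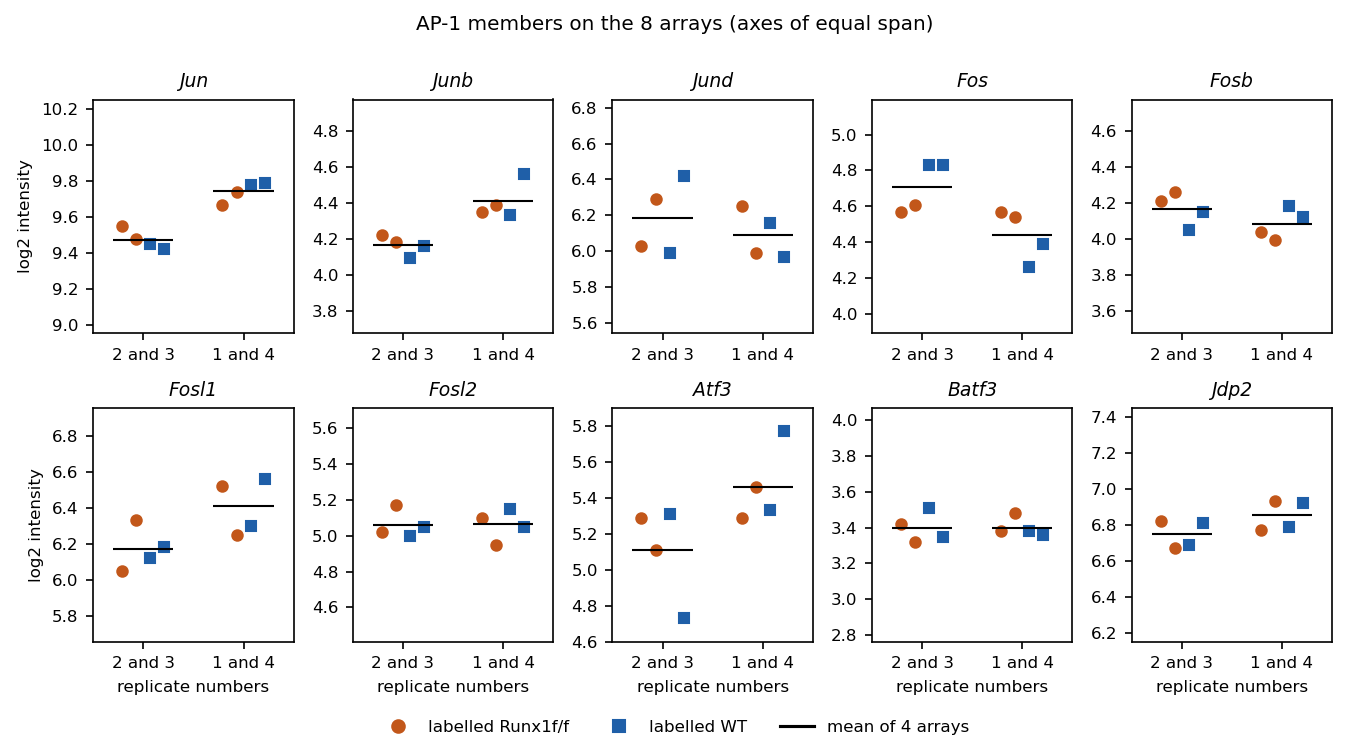
Log2 intensity (vertical axes of equal span) of the 10 AP-1 members in replicate numbers 2 and 3 (left) and 1 and 4 (right), with circles for arrays labelled Runx1f/f, squares for WT and a line at the mean of 4 arrays. Jun and Junb lie lower on the left without overlap, Fos touches at 4.57, and the other 7 members overlap.

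Among the Jun genes, Jun and Junb shared a direction and Jund did not. Jun, which encodes the strongest activator of the Jun proteins, read 9.55 and 9.48 in Runx1f/f 2 and 3 and 9.45 and 9.42 in WT 2 and 3, against 9.67 and 9.74 in Runx1f/f 1 and 4 and 9.78 and 9.79 in WT 1 and 4. All 4 arrays of numbers 2 and 3 were thus lower, with a gap of 0.12 between the nearest arrays of the groups. Their mean was 9.48 ± 0.05, against 9.74 ± 0.05 in numbers 1 and 4 (SD, n = 4 each). Because the equal column means tie the arrays to one another, these SDs do not measure the spread of independent replicates. The difference was -0.27. Junb, a weaker activator that can restrain c-Jun, read 4.22 and 4.18 in Runx1f/f 2 and 3 and 4.09 and 4.16 in WT 2 and 3, against 4.35 and 4.39 in Runx1f/f 1 and 4 and 4.33 and 4.56 in WT 1 and 4. Its difference was -0.25, with a gap of 0.11, and WT 4 was the highest array. Jund, a more evenly expressed Jun protein linked to slower growth in fibroblasts, read 6.03 and 6.29 in Runx1f/f 2 and 3 and 5.99 and 6.42 in WT 2 and 3, against 6.25 and 5.99 in Runx1f/f 1 and 4 and 6.16 and 5.97 in WT 1 and 4. The Jund groups overlapped: number 3 was highest and number 4 lowest under both labels. The difference of 0.09 dropped to 0.01 without WT 3.

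The Fos genes had no common direction. Fos, the classic serum-induced partner of c-Jun, read 4.57 and 4.61 in Runx1f/f 2 and 3 and 4.83 and 4.83 in WT 2 and 3, against 4.57 and 4.54 in Runx1f/f 1 and 4 and 4.26 and 4.39 in WT 1 and 4. The separation lay in the columns labelled WT, where the difference was 0.50. In those labelled Runx1f/f it was 0.03, and the groups were 0.00018 apart there, so the absence of overlap in Fos is a near tie. Fosl1, which encodes Fra-1 and is a target of AP-1 itself, read 6.05 and 6.33 in Runx1f/f 2 and 3 and 6.12 and 6.18 in WT 2 and 3, against 6.52 and 6.25 in Runx1f/f 1 and 4 and 6.30 and 6.56 in WT 1 and 4. It was lower by 0.24 on average, with overlap, because Runx1f/f 3 read above Runx1f/f 4 and WT 1. Fosb and Fosl2, which encode FosB and Fra-2, spanned 3.99 to 4.26 and 4.95 to 5.17 over the 8 arrays. Their differences were 0.09 and -0.01, within the spread of the arrays, and Runx1f/f 4 was the lowest and Runx1f/f 3 the highest array in both genes.

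Atf3 was the most variable member. This stress-induced gene, whose protein represses as a pair with itself, read 5.29 and 5.11 in Runx1f/f 2 and 3 and 5.31 and 4.73 in WT 2 and 3, against 5.29 and 5.46 in Runx1f/f 1 and 4 and 5.33 and 5.77 in WT 1 and 4. Its range of 1.04 lay at percentile 96.5 of the ranges of all genes and came from 2 arrays, WT 3 at the bottom and WT 4 at the top. The difference of -0.35 became -0.22 without WT 3 and -0.25 without WT 4. Numbers 1 and 2 hardly differed in Atf3, as the difference within the source numbers 139 to 142 was -0.01. Jdp2, a repressor of AP-1 that also promotes muscle differentiation in cultured cells, read 6.67 to 6.82 in numbers 2 and 3 and 6.77 to 6.93 in numbers 1 and 4, a difference of -0.11. Batf3, known for its role in dendritic cells, read 3.32 to 3.51 in numbers 2 and 3 and 3.36 to 3.48 in numbers 1 and 4, with a difference of 0.00 and the smallest range of the 10. Detection values were not used here, so whether the dim probe sets of Batf3, Fosb, Junb and Fos stood above background was not tested.

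The columns with equal means form 3 sets, and each gives its own difference between replicate numbers: Runx1f/f 2 minus 1, Runx1f/f 3 minus 4, and WT 2 and 3 minus WT 1 and 4. Jun was lower in all 3, with differences of -0.12, -0.25 and -0.35 in that order. Junb was lower in all 3 as well, with -0.12, -0.20 and -0.33. Fos was above 0 in all 3, at 0.00018, 0.06 and 0.50. Over all genes, 19.6% were lower in all 3 sets and 16.8% higher in all 3, so these 3 members of 10 stand beside a background of 36.4% with a common sign. The other 7 had mixed signs, among them Fosl1 at -0.47, 0.07 and -0.28, Jund at -0.22, 0.31 and 0.14, and Fosl2 at -0.08, 0.22 and -0.08. Fosb was at 0.17 and 0.27 in the Runx1f/f pairs and at -0.05 in WT. Whether any of these differences depends on genotype was not tested.

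**Figure D2:**
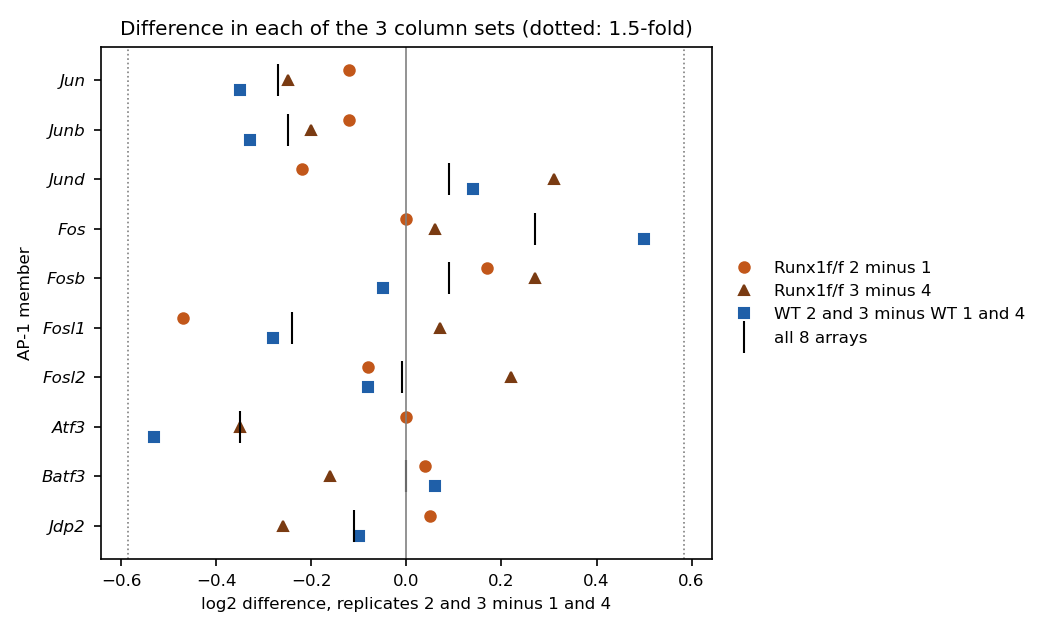
Log2 difference (horizontal axis) of each AP-1 member, replicate numbers 2 and 3 minus 1 and 4, in the 3 column sets with equal means and over all 8 arrays (vertical tick), with dotted lines at 1.5-fold. Jun and Junb lie left of 0 in every set, while Fosl1, Jund and Fosl2 scatter to both sides.

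As labelled, the source number run 181 and 189 holds number 4 of both genotypes and the run 160 to 161 holds number 3 of both, so between these runs replicate number and run cannot be told apart. Within the run 139 to 142 as labelled, number 2 minus number 1 of both labels was -0.22 for Jun and -0.18 for Junb. It was 0.29 for Fos and -0.32 for Fosl1. Jund was at -0.20 there, opposite to its sign over all 8 arrays. With the columns in source number order, the run 139 to 142 would instead be the columns labelled WT 1 to 4, where the difference was -0.35 for Jun, -0.33 for Junb, 0.50 for Fos and -0.28 for Fosl1. Groups did not overlap in 4 members within the 4 columns labelled Runx1f/f (58.3% of all genes), in 5 within the 4 labelled WT (47.8%) and in 7 within the run 139 to 142 (50.7%).

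By the likeness of their profiles over the 8 arrays, measured as the root mean square difference of mean-centred log2 values relative to the SD of the member, the genes nearest to Jun were Blvra, Rrbp1 and Prpf31, at 0.17, 0.19 and 0.20. Riox1, Mrpl34 and Poc1a were nearest to Fosl1, at 0.15 to 0.21, and Fitm1, Nsd1 and Tbl1xr1 nearest to Fos, at 0.14 to 0.16. For Atf3 the nearest genes, Zfp503, Usp31 and Tyms, were farther away, at 0.33 to 0.36. These are the closest of 18553 genes, the 8 columns hold 5 independent differences, and the values describe profiles only.

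Other bZIP factors also stayed within 1.5-fold, as most genes did. Of 27 measured, 0 were over 1.5-fold higher and 0 lower, beside 2.32% and 0.838% of all genes. Their median difference was -0.01. In numbers 2 and 3, 3 of them lay wholly higher and 3 wholly lower, beside 9.87% and 10.5% of all genes. The kinases and activators upstream of AP-1 had a median of 0.05 over 32 measured genes, with 7 wholly higher and 1 wholly lower, beside the same shares of all genes. Mapk8, which encodes JNK1, read 8.73 and 8.74 in Runx1f/f 2 and 3 and 8.79 and 8.70 in WT 2 and 3, against 8.50 and 8.49 in Runx1f/f 1 and 4 and 8.54 and 8.45 in WT 1 and 4. The groups did not overlap, at a difference of 0.24. Mapk8ip1, which encodes the JNK scaffold JIP1, was the 1 gene of these 32 past 1.5-fold (3.1%), beside 2.32% of all genes higher. It read 5.82 to 6.23 in numbers 2 and 3 against 4.96 to 5.40 in numbers 1 and 4, a difference of 0.88. Srf, the serum response factor that drives Fos and Egr1, was the gene wholly lower, at 6.99 to 7.21 against 7.38 to 7.47.

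**Figure D3:**
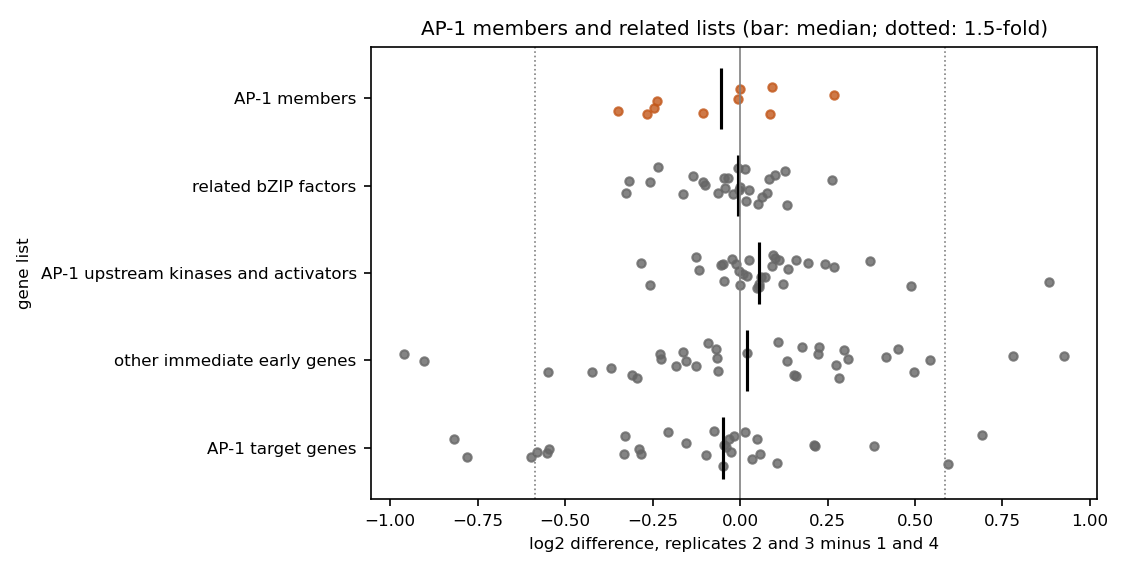
Log2 difference (horizontal axis), replicate numbers 2 and 3 minus 1 and 4, of single genes (points) in the AP-1 family and 4 related lists, with a bar at each median and dotted lines at 1.5-fold. AP-1 members and related bZIP factors stay between the dotted lines, while immediate early and target genes reach past them on both sides.

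Immediate early genes outside the family had differences in both directions. Of 35 measured, 2 were over 1.5-fold higher and 2 over 1.5-fold lower, beside 2.32% and 0.838% of all genes, with a median of 0.02. In numbers 2 and 3, 9 lay wholly higher and 7 wholly lower, beside 9.87% and 10.5% of all genes. Egr1, a zinc finger factor induced through ERK and Srf, read 6.57 and 6.73 in Runx1f/f 2 and 3 and 7.13 and 7.47 in WT 2 and 3, against 6.45 and 6.29 in Runx1f/f 1 and 4 and 5.51 and 5.94 in WT 1 and 4. It was higher by 0.93, and as in Fos the columns labelled WT lay farther apart than those labelled Runx1f/f. Egr2 was higher by 0.78. Dusp1, the phosphatase that switches off JNK and p38, read 8.78 and 8.46 in Runx1f/f 2 and 3 and 8.86 and 8.32 in WT 2 and 3, against 9.33 and 9.65 in Runx1f/f 1 and 4 and 9.50 and 9.55 in WT 1 and 4. It was lower by 0.90. Ccn1, a matricellular protein also known as Cyr61, was lower too, at 9.25 to 10.02 against 10.44 to 10.93. Myc was at 8.29 to 8.35 in numbers 2 and 3 and at 8.36 to 8.60 in numbers 1 and 4, a difference of -0.18.

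**Figure D4:**
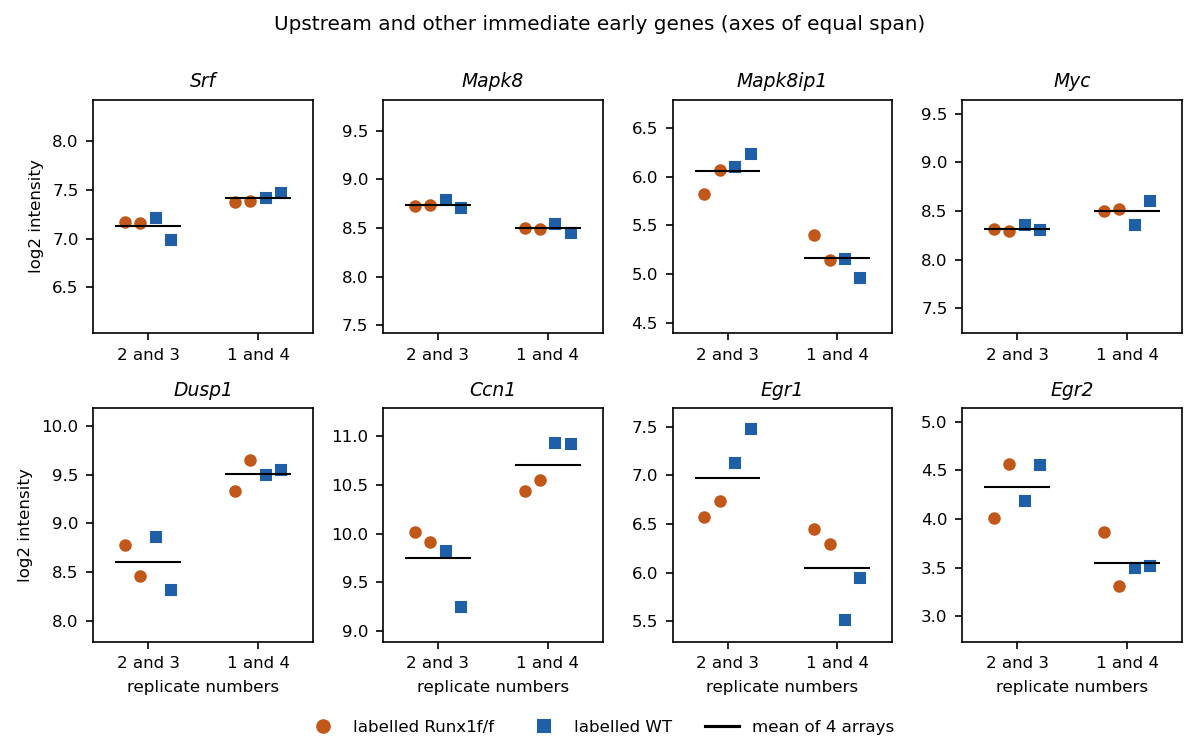
Log2 intensity (vertical axes of equal span) of upstream and other immediate early genes in replicate numbers 2 and 3 (left) and 1 and 4 (right), with circles for arrays labelled Runx1f/f, squares for WT and a line at the mean of 4 arrays. Egr1, Egr2 and Mapk8ip1 are higher on the left, and Dusp1, Ccn1 and Srf lower.

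Genes known as AP-1 targets in other cells gave a mixed picture. Of 30 measured, 2 were over 1.5-fold higher and 3 over 1.5-fold lower, beside 2.32% and 0.838% of all genes, with a median of -0.05, and 1 was wholly higher and 7 wholly lower, beside 9.87% and 10.5%. Vegfa, the angiogenic growth factor, read 7.34 and 7.14 in Runx1f/f 2 and 3 and 7.39 and 7.17 in WT 2 and 3, against 7.99 and 8.20 in Runx1f/f 1 and 4 and 7.90 and 8.21 in WT 1 and 4. Ezr, which links actin to the membrane, was lower by 0.78 and Gja1, the gap junction protein connexin 43, by 0.60, both without overlap. Ereg, an EGF family ligand, was higher by 0.60 without overlap, and Tnc, the matrix protein tenascin C, by 0.69 with overlap. In Ereg the difference lay in the columns labelled Runx1f/f, with 4.45 and 4.79 in numbers 2 and 3 against 3.70 and 3.36 in numbers 1 and 4, while those labelled WT ran from 4.01 to 4.18.

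Myoblast markers had average levels of 7.07 (Pax7) to 11.35 (Myod1), leukocyte markers of 3.27 to 4.60 and endothelial markers of 3.32 to 3.64. As these are levels of different probe sets, read without detection values, they do not show which cell types were present or how pure the cultures were. The mean level of 10 myoblast markers was 9.76 to 9.83 in numbers 2 and 3 and 9.74 to 9.82 in numbers 1 and 4. Of the 10, 3 lay wholly higher and 2 wholly lower in numbers 2 and 3, beside 9.87% and 10.5% of all genes. Myf5 was lower by 0.89 without overlap. Wholly higher were Myog, which drives differentiation, by 0.76, Cdh15 by 0.25 and Des by 0.18. Pax7, Itga7, Ncam1, Vcam1 and Chrnd overlapped. Myod1, the other named partner of Runx1, was lower by 0.26, close to the -0.27 of Jun, at 11.12 to 11.26 against 11.44 to 11.57. The part of differentiation state in the AP-1 differences was not tested. In whole cultures, fewer cells of a type and less RNA per cell cannot be told apart. The mean of 10 leukocyte markers was 3.56 to 3.61 in numbers 2 and 3 and 3.52 to 3.56 in numbers 1 and 4, and that of 6 endothelial markers 3.50 to 3.52 and 3.55 to 3.57. Of 7 fibroblast and fibro-adipogenic markers, Col3a1 read 8.60 to 9.21, while Pdgfra read 3.40 to 3.63 and Dcn 3.43 to 3.58. Of 7 stress-induced heat shock genes, 0 differed over 1.5-fold between the replicate numbers, beside 2.32% of all genes higher and 0.838% lower. Their median difference was -0.01. Among them 1, Hspb1, was wholly higher in numbers 2 and 3, by 0.27, beside 9.87% of all genes wholly higher.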

How the data were processed

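Total RNA of 8 primary myoblast samples (200 ng each) was hybridised to single-colour arrays. The deposited table holds log2 intensities, and RMA and Partek are named without versions in the submitters' processing notes. RMA corrects background, quantile-normalizes arrays and summarizes probe sets, which compresses differences of dim ones. The sources used here do not give the step that made column means equal. Columns were assigned by their sample accession, and whether those labels fit the columns was not tested. Array medians were 4.39 to 4.41, and no dim filter was applied.

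Of 23410 annotated rows, 21789 had 1 symbol and 1621 several, and 11989 had none. The row with the highest mean stood for each gene. The test between the labelled genotypes was limma 3.58.1 under R 4.3.3 (Benjamini-Hochberg, two-sided, threshold 0.05). On simulated independent arrays with 200 genes changed among 19938, the fit recovered 92% and 94% of genes lowered or raised by 1 on the log2 scale, with 10 false calls, which says nothing about the power of the deposited columns. Deviations of same-numbered arrays correlated by 0.39, 0.46, 0.60 and 0.57, and the numbers were used as pairs in an alternative fit, although the labels state no pairing.

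The members and lists were chosen with earlier results of these data known. The text names all 10 members, from each of 4 pathway lists up to 3 genes each way with the largest differences past 1.5-fold, and always Srf, Mapk8, Egr1, Myc and Runx1. Nearest profiles are given for Jun and the 3 members with the widest range. Alternatives were other scalings, probe set choice, blocks, thresholds, labelled genotypes or runs taken alone, and each array left out. Scanner files were not used here.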

Additional observations from a re-analysis of the deposited data

How the results depend on the processing

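The counts of 0 genes and 0 AP-1 members called between the labelled genotypes held in each fit run. They were run with centring, repeated quantile normalization, another probe set choice, a dim filter (7 members tested) or all rows (genes only). Others used adjusted p under 0.1, a trended variance or a block for the source number runs. The equal column means fix most of these counts, so they are no sign of stability. A replicate block in the fit left both counts at 0 and the Jun difference at 0, and changed no other call. Leaving out 1 array moved the Jun difference (Runx1f/f minus WT) to between -0.062 and 0.059, set by the array left out, with 0 calls and 0 to 27 genes at an unadjusted p under 0.05. Between replicate numbers, the counts of 0 members over 1.5-fold higher and 0 lower held in each alternative at that fold. Another probe set choice could not change them, as each of the 10 members has 1 probe set. That 0 members passed 2-fold follows from these counts. At the smaller limit of 0.32 on the log2 scale, 1 member was lower and 0 higher. Members without overlap, 3 over all arrays, numbered 4 within the columns labelled Runx1f/f (58.3% of all genes) and 5 within those labelled WT (47.8%). Within the run 139 to 142 there were 7 (50.7%). Fewer arrays per group make overlap rarer by construction in these subsets, and in the Runx1f/f columns so do the mirror-image pairs. With 1 array left out the count was 3 to 4 (23.2% to 26.0%). With 1 array left out, Jun ran from -0.29 to -0.25, Junb from -0.27 to -0.19, Fos from 0.21 to 0.31, Fosl1 from -0.29 to -0.19 and Atf3 from -0.42 to -0.22. Precision is limited by the number of arrays, and signal over background was not analysed here.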
